A study of Mus musculus with 15 samples.

Results

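The immediate early response genes considered here are Fos, Fosb, Jun, Junb, Egr1, Egr2, Egr3, Ier2, Atf3 and Dusp1, taken by gene symbol from the deposited count tables. All 10 were found in both tables, among 23420 genes. Their RNA was measured by RNA sequencing of whole lungs from wildtype embryos of the outbred CD1 mouse strain. 5 groups of 3 libraries were compared. High pressure and low pressure lungs were explanted at stage E12.5 (E counts days of gestation) and kept in culture for 48 hours at the named transmural pressure, which is the pressure of the airway lumen over that outside the lung. The fresh groups were lungs taken directly from embryos at stages E12.5, E13.5 or E14.5. High pressure, E13.5 and E14.5 libraries each pooled 3 lungs, and low pressure and E12.5 libraries each pooled 6, per the labels' protocols. Pool size thus moved with pressure and with the step out of E12.5, and its part in those comparisons cannot be told apart from them. It was the same in low pressure and E12.5 libraries, and in high pressure and E14.5 libraries. Whether pools within a group came from different litters or different culture runs is not in the labels, and p-values therefore measure the spread between these pools alone, which may be technical.

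Immediate early genes are transcribed within minutes of a growth factor, stretch, wounding or stress signal, from factors that are already present in the cell. The signal reaches them mainly through MAP kinases acting on serum response factor with its partners and on CREB, and their messages are short-lived. FOS and JUN proteins pair to form the transcription factor AP-1, EGR proteins are zinc finger transcription factors, and DUSP1 is a phosphatase that switches MAP kinases off again, so the set holds both the response and its brake.

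Total counts were 40167255 to 44341263 in high pressure libraries, 31843739 to 38288861 in low pressure libraries and 18837343 to 21955244 in fresh libraries. Genes with counts numbered 14637 in low pressure replicate 3 and 16465 to 16729 elsewhere. In the fresh lungs replicate 1 of each stage stood apart: ribosomal protein genes took 3.53% to 4.30% of its counts, against 1.75% to 2.21% in replicates 2 and 3. The same genes took 3.02% to 3.31% of the counts at high pressure and 1.91% to 2.17% at low pressure. The summed level of 6 epithelial markers was 1221 to 1327 CPM at high pressure, 698 to 791 CPM at low pressure and 509 to 672 CPM at E12.5. CPM here are raw counts divided by each library's effective size, which was set by TMM (trimmed mean of M values) over all 15 libraries.

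Short sequence elements through which these genes are known to be induced were looked for in their promoters, because several of them changed together in culture. RefSeq promoter windows on GRCm38.p6, from 250 bases before to 50 bases after an annotated start, were held for 7 of the 10 genes, and none for Egr1, Egr3 and Ier2. The cAMP response element core TGACG, to which CREB and ATF proteins bind, was present on either strand in windows of 6 of these 7 genes (Fos, Fosb, Junb, Egr2, Atf3 and Dusp1), and in 20.8% of 32851 promoter windows of the same length. Its full form TGACGTCA, which contains the core, was found in the Dusp1 window alone among the 7, and in 1.79% of all windows. A CArG box, the serum response factor site, was found in Egr2 windows alone, and in 1.63% of all windows. Sequence farther upstream was not searched, so the other genes may hold a CArG box outside their windows. Egr2 had 5 overlapping or neighbouring windows and the other genes 1 each, so Egr2 had more sequence in which to find a match. The EGR motif GCGNGGGCG was found in the Fosb window (5.55% of all windows). The AP-1 motif TGANTCA was found in none of the 7 genes' windows and in 7.81% of all windows, which says only that these letters are not in these windows. The 4 windows below show the arrangement of these elements in a FOS gene, a JUN gene, an EGR gene and the phosphatase. Capitals mark the motif matches, which are descriptions of the sequence and not of binding. In Fos (chr12:85473640-85473939, plus strand) the core sites lie 129 and 66 bases before the start, and in Junb (chr8:84978699-84978998, minus strand) 106 bases before it. In Egr2 (chr10:67537619-67537918, plus strand) the CArG box lies 72 bases before the start, between core sites 111 and 55 bases before it. In Dusp1 (chr17:26508423-26508722, minus strand) the full element lies 143 bases before the start, with a further core site upstream.
Fos: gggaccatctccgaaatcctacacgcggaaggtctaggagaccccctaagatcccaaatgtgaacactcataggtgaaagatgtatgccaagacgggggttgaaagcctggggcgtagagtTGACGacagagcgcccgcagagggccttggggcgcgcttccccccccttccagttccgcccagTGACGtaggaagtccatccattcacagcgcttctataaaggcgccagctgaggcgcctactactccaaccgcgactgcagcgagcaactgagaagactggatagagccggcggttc
Junb: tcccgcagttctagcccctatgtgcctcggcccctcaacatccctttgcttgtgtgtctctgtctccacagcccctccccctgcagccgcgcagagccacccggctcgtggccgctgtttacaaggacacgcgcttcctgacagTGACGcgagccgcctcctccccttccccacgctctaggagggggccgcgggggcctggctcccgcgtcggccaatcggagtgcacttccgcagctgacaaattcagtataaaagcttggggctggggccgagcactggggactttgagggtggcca
Egr2: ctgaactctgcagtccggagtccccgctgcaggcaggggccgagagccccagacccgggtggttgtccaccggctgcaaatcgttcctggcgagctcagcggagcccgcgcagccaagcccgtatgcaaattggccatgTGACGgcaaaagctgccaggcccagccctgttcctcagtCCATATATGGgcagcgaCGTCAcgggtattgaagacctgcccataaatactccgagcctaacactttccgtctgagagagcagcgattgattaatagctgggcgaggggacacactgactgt
Dusp1: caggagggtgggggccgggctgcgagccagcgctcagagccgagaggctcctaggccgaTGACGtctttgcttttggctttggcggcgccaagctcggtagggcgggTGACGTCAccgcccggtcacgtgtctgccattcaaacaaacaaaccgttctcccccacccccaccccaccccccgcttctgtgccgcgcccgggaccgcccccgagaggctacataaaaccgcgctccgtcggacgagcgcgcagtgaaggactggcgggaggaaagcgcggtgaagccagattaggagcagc

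The genes differed widely in level, and the order was compared as CPM per kb of exonic length, from GENCODE M21 on the same build, mm10. In E12.5 lungs Ier2, a short nuclear protein gene, stood highest at 34.0 ± 7.63 CPM per kb, and Jun followed at 21.5 ± 7.41 CPM per kb (SD, n = 3). These neighbours overlapped in their libraries, since Jun reached 30.0 and Ier2 was as low as 27.9 CPM per kb. Dusp1 (3.27), Egr1 (2.10), Junb (1.43), Atf3 (0.854) and Fos (0.385) came next, as mean CPM per kb at E12.5, of which Atf3 overlapped Fos in its libraries and, with a highest value of 1.35 CPM per kb, not Junb. Egr2, Egr3 and Fosb were all under 0.10 CPM per kb in every E12.5 library. In the cultured groups Ier2 and Jun still came first, at 52.4 and 44.6 CPM per kb at high pressure and 71.0 and 46.3 CPM per kb at low pressure. Junb came next in both cultured groups, at 17.4 CPM per kb at high pressure and 13.49 CPM per kb at low pressure. Fos, Egr1 and Dusp1 filled the fourth to the sixth place there, and in low pressure libraries their ranges, like those of Junb, overlapped. The genes are compact, with a median span of 5287 bases, against 18305 bases for 19331 protein-coding genes of the tables.

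**Figure D1:**
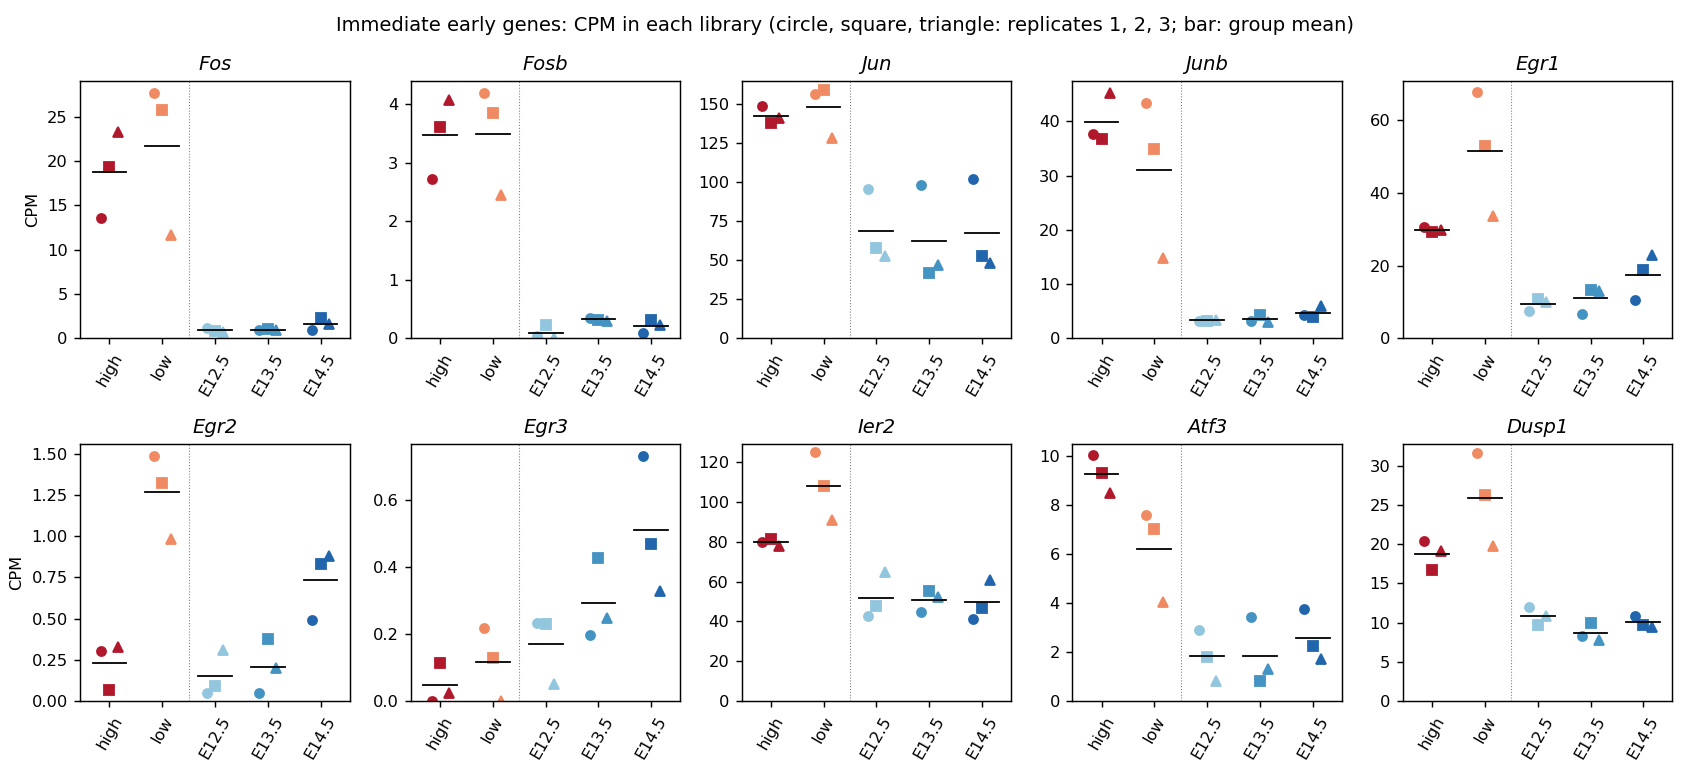
CPM of each of the 10 genes in every library, by group, with 1 point per library and a bar at the group mean. Fos, Fosb, Jun, Junb, Egr1, Ier2, Atf3 and Dusp1 in all 6 cultured libraries lie above all 9 fresh libraries. The share of all genes with that separation is not given here. Against the E12.5 libraries alone, 24% of all genes tested lay higher without overlap at low pressure and 30.7% at high pressure. Egr2 overlaps, and Egr3 stays under 1 CPM throughout.

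The first comparison set the cultured lungs against lungs fresh from the embryo at the stage of explantation. Of the set, Fos, Fosb and Junb showed the largest differences and were many fold higher in culture at either pressure. Egr1 and Atf3 were several fold higher. Jun, also an AP-1 gene, rose by less, as did Ier2 and Dusp1. The scarce Egr2 rose at low pressure alone (log2 fold change 3.08). In a fit of all 15 libraries, 9 of the 10 genes could be tested at low pressure against E12.5, and 9 rose, against 17.6% of all 14970 genes tested. In those 9 genes all low pressure libraries lay above all E12.5 libraries, as for 24% of all genes. At high pressure against E12.5, 8 of the 9 rose, against 22.3% of all genes, and Egr2 did not pass. The same 8 did not overlap between the groups, as for 30.7% of all genes. Fosb and Egr2 did not pass the filter on low counts within the fresh libraries alone, so their rises are a description. The 7 others also passed that filter within the fresh libraries alone, and all of them rose at both pressures. Both comparisons use the same 3 E12.5 libraries. The cultured and the fresh lungs were deposited as separate sample sets, so culture and sample set cannot be told apart. In these bulk samples a change in the share of cells that express a gene and a change in RNA per cell cannot be told apart either.

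Fos, the FOS partner of AP-1 that is the textbook immediate early gene (chromosome 12, 85473890 to 85477273, plus strand), had 13.6, 19.3 and 23.3 CPM at high pressure. It had 27.7, 25.8 and 11.7 CPM at low pressure, against 1.12, 0.87 and 0.72 CPM at E12.5. The lowest cultured value, 11.7 CPM, lay far above the highest E12.5 value, 1.12 CPM. The log2 fold change of Fos was 4.36 (SE 0.40, adjusted p = 4.90e-06) at high pressure and 4.58 (SE 0.41, adjusted p = 5.97e-06) at low pressure against E12.5, by edgeR's quasi-likelihood test. Here and below, p-values were adjusted by the Benjamini-Hochberg method over every gene tested. Fosb, a second FOS protein (chromosome 7, 19302696 to 19310051, minus strand), had 117, 159 and 162 counts at high pressure, 135, 148 and 77 counts at low pressure, and 1, 5 and 0 counts at E12.5. The library with no count allows up to 3 counts, which is 0.153 CPM and covers counting error only. Fosb levels were 2.72 to 4.07 CPM at high pressure and 2.44 to 4.19 CPM at low pressure. Its fitted log2 fold changes against E12.5 were 5.12 (SE 0.64) at high pressure and 5.14 (SE 0.64) at low pressure, and their size depends on how so few E12.5 counts are modelled.

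Junb, a JUN protein of AP-1 (chromosome 8, 84974484 to 84978718, minus strand), had 37.8, 36.7 and 45.3 CPM at high pressure, and 43.4, 34.9 and 14.8 CPM at low pressure. The E12.5 libraries lay close together, at 3.23, 3.27 and 3.37 CPM. The log2 fold change was 3.59 (SE 0.34, adjusted p = 5.61e-06) at high pressure and 3.24 (SE 0.34, adjusted p = 1.84e-05) at low pressure against E12.5. Junb overlaps the peroxiredoxin gene Prdx2 on the other strand, and whether the counting used strand is not given in the sources used here. Prdx2 was lower in culture, at -0.73 (SE 0.14) for high pressure and -0.83 (SE 0.14) for low pressure on the log2 scale, opposite to Junb. Jun itself, the founding AP-1 gene (chromosome 4, 95049034 to 95052222, minus strand, overlapping the antisense gene Junos), had 148, 138 and 141 CPM at high pressure and 156, 159 and 128 CPM at low pressure. At E12.5 it had 95.8, 57.9 and 52.3 CPM, with replicate 1 far above the other libraries of its group. Jun passed, with log2 fold changes of 1.04 (SE 0.35, adjusted p = 0.0299) at high pressure and 1.105 (SE 0.36, adjusted p = 0.0298) at low pressure. Leaving out 1 library ended the call in 5 of 6 cases at high pressure (all but E12.5 replicate 1; adjusted p up to 0.114) and in 4 of 6 cases at low pressure (all but E12.5 replicate 1 and low pressure replicate 3; up to 0.108).

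Egr1, an early growth response factor (chromosome 18, 34859823 to 34864984, plus strand), had 30.7, 29.2 and 29.6 CPM at high pressure and 67.7, 52.8 and 33.6 CPM at low pressure. It had 7.49, 10.9 and 9.91 CPM at E12.5, and no cultured library overlapped these. Its log2 fold change was 1.66 (SE 0.32, adjusted p = 0.0012) at high pressure and 2.45 (SE 0.33, adjusted p = 0.00013) at low pressure. Egr2, a relative known from hindbrain and Schwann cells (chromosome 10, 67535475 to 67542188, plus strand), was scarce everywhere, with 13, 3 and 13 counts at high pressure, 48, 51 and 31 counts at low pressure, and 1, 2 and 6 counts at E12.5. Only low pressure lungs stood above E12.5 lungs in all libraries, at 0.98 to 1.49 CPM against 0.05 to 0.31 CPM. The log2 fold change was 3.08 (SE 0.75, adjusted p = 0.00678) at low pressure, and 0.65 (SE 0.78, adjusted p = 0.529) at high pressure, where the libraries overlapped. Egr2 did not pass the filter on low counts within the fresh libraries alone, so its rise at low pressure is a description. Egr3 (chromosome 14, 70077203 to 70082614, plus strand) had at most 15 counts in any library and could not be tested. Its levels were 0, 0.11 and 0.03 CPM at high pressure, 0.22, 0.13 and 0 CPM at low pressure and 0.23, 0.23 and 0.05 CPM at E12.5, and the 2 libraries with no count allow up to 0.0697 CPM (high pressure) and 0.0952 CPM (low pressure).

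Atf3, a stress-induced transcription factor that pairs with AP-1 proteins (chromosome 1, 191170296 to 191218039, minus strand), had 10.02, 9.30 and 8.46 CPM at high pressure, 7.57, 7.02 and 4.03 CPM at low pressure, and 2.90, 1.80 and 0.82 CPM at E12.5. All cultured libraries were above all E12.5 libraries. The log2 fold change was 2.32 (SE 0.53, adjusted p = 0.00356) at high pressure and 1.75 (SE 0.53, adjusted p = 0.0217) at low pressure, and leaving out E12.5 replicate 2 or 3, or low pressure replicate 1 or 2, ended the call at low pressure (adjusted p = 0.0515 to 0.0791). Ier2 (chromosome 8, 84661331 to 84662852, minus strand) had 79.7, 81.6 and 77.8 CPM at high pressure, 125, 108 and 91.1 CPM at low pressure and 42.5, 47.9 and 64.7 CPM at E12.5. The groups did not overlap, and the log2 fold change was 0.62 (SE 0.18, adjusted p = 0.0137) at high pressure and 1.07 (SE 0.18, adjusted p = 0.000687) at low pressure. The call at high pressure ended without E12.5 replicate 2 (adjusted p = 0.0583) or high pressure replicate 2 (adjusted p = 0.0513). Dusp1, the phosphatase of the set (chromosome 17, 26505590 to 26562128, minus strand, overlapping Ergic1), had 20.4, 16.7 and 19.1 CPM at high pressure, 31.6, 26.2 and 19.7 CPM at low pressure and 11.99, 9.71 and 10.8 CPM at E12.5. It rose by 0.78 (SE 0.19, adjusted p = 0.00498) at high pressure and by 1.25 (SE 0.19, adjusted p = 0.000304) at low pressure on the log2 scale. Ergic1 stood at -0.30 and -0.33 on the same scale and did not pass.

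**Figure D2:**
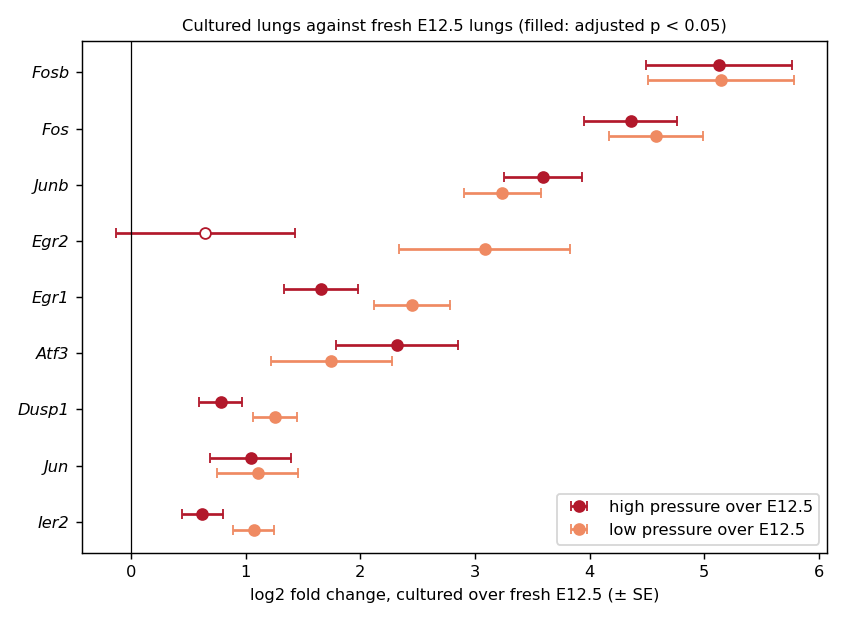
Log2 fold change with its SE of each tested gene in high pressure and low pressure lungs against E12.5 lungs, from the fit of all 15 libraries. Fosb, Fos and Junb lie above 3 in both comparisons, and Egr2 is the gene for which the comparisons lie farthest apart, at 0.65 for high pressure and 3.08 for low pressure.

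A lung explanted at E12.5 and cultured for 48 hours has the nominal age of an E14.5 lung, and the cultured groups were therefore also set against E14.5, a comparison chosen after the data were seen. At low pressure against E14.5, 7 of the 9 tested genes rose, against 16.6% of all genes tested. The log2 fold changes of Fosb (4.04), Fos (3.78) and Junb (2.73) were the largest of the 9, while Atf3 (1.27, adjusted p = 0.0746) and Egr2 (0.79, adjusted p = 0.363) did not pass. At high pressure against E14.5, 7 of the 9 rose too, against 19.9% of all genes. There Fos (3.56), Fosb (4.03) and Junb (3.08) again led, and Egr1 (0.78, adjusted p = 0.0644) and Egr2 (-1.64, adjusted p = 0.0685) did not pass. High pressure and E14.5 libraries both pooled 3 lungs, and low pressure and E12.5 libraries both pooled 6. Fos, Jun, Junb, Ier2, Atf3 and Dusp1 passed in both of these comparisons of equal pool size. Fosb passed in both too, but it entered the fits only through counts in the cultured libraries. Its rises against E14.5, which are among the 7 of 9 at each pressure, are therefore a description. Of all genes tested, 17.6% rose at low pressure against E12.5 and 19.9% at high pressure against E14.5. Leaving out 1 library ended the calls of Jun and of Atf3 at low pressure against E12.5 in 4 of 6 cases each. The part of pool size in the rises was not tested.

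Other genes of the response were read from lists written for this purpose. Of 33 tested further immediate early genes, 19 rose at high pressure against E12.5, where 22.3% of all genes rose. Their median log2 fold change was 0.93 against -0.018 for all genes tested. Within the fresh libraries alone, 31 genes of the list passed the filter on low counts. At low pressure against E12.5 19 of 33 rose, where 17.6% of all genes rose, with a median of 0.90 against -0.020 for all genes. No gene of the list fell in either comparison in the fit of all 15 libraries without a block, by edgeR's quasi-likelihood test; at an unadjusted p under 0.05, 2 genes fell at high pressure and 0 at low pressure, and the same 2 and 0 counts were found with DESeq2. With the replicate block, or without E12.5 replicate 3, 1 gene fell at high pressure, and without the 3 replicate 1 libraries of the fresh lungs 1 fell at high pressure and 2 at low pressure. Ier3, a survival gene of the early response, averaged 57.9 CPM at high pressure and 1.19 CPM at E12.5, a log2 fold change of 5.59 (SE 0.56). Maff, a small MAF protein, averaged 30.3 CPM at high pressure and 4.82 CPM at E12.5, and Socs3, a feedback inhibitor of cytokine signalling, averaged 76.2 CPM at high pressure and 11.4 CPM at E12.5. Zfp36, whose protein promotes decay of early response messages, averaged 54.4 CPM at high pressure and 9.08 CPM at E12.5. At low pressure the genes with the smallest p were Maff (2.93), Ptgs2 (4.51), the FOS relative Fosl2 (2.40) and Socs3 (1.99), as log2 fold changes. Ptgs2, the inducible enzyme of prostaglandin synthesis, averaged 9.45 CPM at low pressure and 0.410 CPM at E12.5. The E12.5 level rests on 26 counts over 3 libraries, so the size of its fold change is uncertain. Ptgs2 did not pass the filter on low counts within the fresh libraries alone, so its rise is a description.

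Kinases and factors upstream of the genes moved in both directions. Of 19 upstream genes, 4 rose and 6 fell at high pressure against E12.5, and 1 rose and 2 fell at low pressure. Over all genes tested 22.3% rose and 21.3% fell at high pressure, and 17.6% rose and 14.9% fell at low pressure, which is also the background of the counts in the lists that follow. Map2k1, which encodes the MAP kinase kinase MEK1, averaged 155 CPM at high pressure and 73.0 CPM at E12.5 (log2 fold change 1.08, SE 0.13), and 203 CPM at low pressure (1.48, SE 0.13). Elk3, a partner of serum response factor, fell by 1.11 at high pressure and by 0.73 at low pressure on the log2 scale, and Srf itself fell by 0.42 at low pressure (adjusted p = 0.0464). Without the 3 replicate 1 libraries of the fresh lungs the counts were 4 higher and 11 lower at high pressure, and 5 higher and 7 lower at low pressure. Calls also became more frequent among all genes there, at 9266 in either direction at high pressure and 7970 at low pressure. With those libraries 3332 rose and 3182 fell at high pressure, and 2628 rose and 2226 fell at low pressure. Leaving out a single library gave 2 to 4 higher and 2 to 5 lower at high pressure, fewest lower without high pressure replicate 1, and 1 to 3 higher and 1 or 2 lower at low pressure, most higher without E12.5 replicate 1. Of 9 other MAP kinase phosphatases, 2 rose and 2 fell at high pressure: Dusp8 (1.96) and Dusp7 (0.59) rose, and Dusp6 (-1.24) and Dusp10 (-1.11) fell. Without E12.5 replicate 3 only 1 of them fell. At low pressure Dusp7 (0.58) and Dusp8 (1.71) rose among the same 9. Of 12 AP-1 partners and EGR corepressors, 7 rose at high pressure, among them Nab2 (1.34), a corepressor of EGR proteins, and Mafk (1.33), and 2 rose at low pressure, among them Nab2 (1.35). Without E12.5 replicate 1, 4 of the 12 rose at low pressure. The heat shock list went mainly the other way: 5 of 10 fell and 3 rose at high pressure, and 6 fell and 1 rose at low pressure against E12.5. Hspd1, a mitochondrial chaperone, averaged 266 CPM at high pressure, 298 CPM at low pressure and 908 CPM at E12.5, and Hsph1 was 2.21 lower on the log2 scale at high pressure. The inducible Hspa1a rose at high pressure, to 14.6 CPM against 0.809 CPM at E12.5 (4.15, SE 0.61), and it has a near-identical neighbour, Hspa1b, with which it may share reads.

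Markers of cell types moved with culture as well. The summed level of 9 macrophage and leukocyte markers was 202 to 293 CPM at high pressure, 191 to 218 CPM at low pressure and 67.6 to 142 CPM at E12.5, and 5 of the 9 rose and 1 fell in each comparison. The 6 endothelial markers summed to 86.9 to 195 CPM at high pressure, 196 to 304 CPM at low pressure and 394 to 507 CPM at E12.5, where all 6 fell at high pressure and 3 fell at low pressure. Red cell markers, of which 2 of 8 had no count in any library, summed to 373 to 518 CPM at high pressure, 247 to 606 CPM at low pressure and 2936 to 3606 CPM at E12.5. The 7 mesenchymal markers summed to 8622 to 11039 CPM at high pressure, 6484 to 7479 CPM at low pressure and 4011 to 4467 CPM at E12.5, and 3 rose and 2 fell at high pressure, 2 rose and 1 fell at low pressure. Smooth muscle markers summed to 275 to 381 CPM at high pressure, 240 to 345 CPM at low pressure and 237 to 418 CPM at E12.5, and of the 5 markers 2 fell and 0 rose at each pressure. Their part in the levels of the immediate early genes was not tested.

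The second comparison asked how the genes differed between the pressures. Egr1 and Ier2 were lower at high pressure, as was the scarce Egr2, and the AP-1 genes Fos, Fosb, Jun and Junb did not pass in either direction. Of the 9 tested genes 3 fell, against 12.2% of 14937 genes tested that fell, and 0 rose, against 14%, by edgeR's quasi-likelihood test. Egr2 passed the filter on low counts only through its low pressure libraries, so its difference is a description, and of the 8 other tested genes 2 fell, Egr1 and Ier2. At an unadjusted p under 0.05, 1 gene rose and 4 fell, and DESeq2 called 0 higher and 3 lower. Egr1 averaged 29.8 ± 0.773 CPM at high pressure and 51.4 ± 17.1 CPM at low pressure (SD, n = 3), and its log2 difference was -0.79 (SE 0.22, adjusted p = 0.0311). All high pressure libraries of Egr1 lay between 29.2 and 30.7 CPM, and the lowest low pressure library, replicate 3, stood just above them at 33.6 CPM. Egr2 averaged 0.232 ± 0.143 CPM at high pressure and 1.27 ± 0.258 CPM at low pressure, with no overlap (-2.44, SE 0.72, adjusted p = 0.0385), on at most 51 counts a library. Ier2 averaged 79.7 ± 1.93 CPM at high pressure and 108 ± 17.0 CPM at low pressure, again with no overlap (-0.44, SE 0.12, adjusted p = 0.0269). Of all genes 21.5% were lower at high pressure without overlap.

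These 3 calls were close to the threshold. Leaving out any 1 library other than low pressure replicate 3 ended each of them, with adjusted p-values of 0.0747 to 0.114 for Egr1, 0.0897 to 0.116 for Egr2 and 0.0681 to 0.101 for Ier2. Low pressure replicate 3, the library with the fewest detected genes, was the lowest of its group for every one of the 10 genes. Without it 4 genes fell at high pressure: Egr1 (-1.01, adjusted p = 8.02e-05), Egr2 (-2.59, adjusted p = 0.0088), Ier2 (-0.55, adjusted p = 0.000482) and Dusp1 (-0.63, adjusted p = 0.00284). That fit called 6253 genes in either direction, against 2089 higher and 1816 lower with all cultured libraries. Calls thus became more frequent among all genes, not in this set alone. In the fit of all 15 libraries only Egr2 passed (adjusted p = 0.0426), with Egr1 at 0.138 and Ier2 at 0.144. The Egr2 difference is a description there too.

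Of the genes that did not pass, Dusp1 averaged 18.7 ± 1.91 CPM at high pressure and 25.8 ± 5.96 CPM at low pressure (-0.47, SE 0.18, adjusted p = 0.0894). Atf3 differed the other way, with 8.46 to 10.02 CPM at high pressure and 4.03 to 7.57 CPM at low pressure. Its libraries did not overlap, as for 25.3% of all genes in that direction, but the difference did not pass (0.57, SE 0.25, adjusted p = 0.124). Fos averaged 18.7 ± 4.86 CPM at high pressure and 21.7 ± 8.74 CPM at low pressure, a difference within the spread of both groups (-0.22, SE 0.32, adjusted p = 0.649). Junb averaged 39.9 ± 4.72 CPM at high pressure and 31.0 ± 14.7 CPM at low pressure (0.36, SE 0.32, adjusted p = 0.449). The difference of Jun was -0.059 with an SE of 0.10, the smallest SE of the set, and that of Fosb -0.015 with an SE of 0.30. A p-value above the threshold does not show that these levels were alike.

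**Figure D3:**
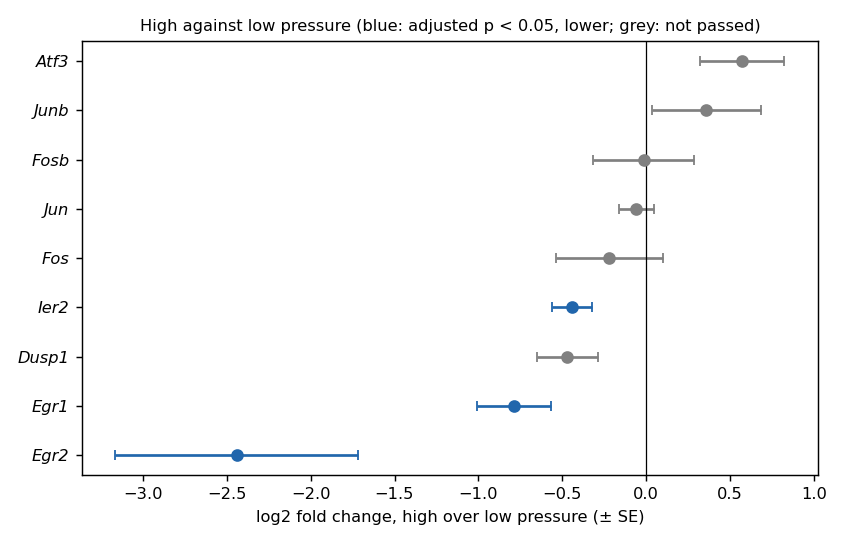
Log2 fold change of high over low pressure with its SE for the 9 tested genes, from the fit of the 6 cultured libraries; blue marks genes lower at high pressure at an adjusted p under 0.05 and grey marks genes that did not pass. Egr2, Egr1 and Ier2 lie below 0, the intervals of 1 SE of Fos, Fosb and Jun cross 0, and that of Junb ends just above it.

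The further immediate early genes did not go one way with pressure. Of 33 tested, 7 rose, against 14% of all genes, and 3 fell, against 12.2%, with a median log2 fold change of 0.067 against 0.014 for all genes. Gadd45b, a stress-induced growth arrest gene, averaged 22.1 CPM at high pressure and 7.72 CPM at low pressure (1.52, SE 0.31, adjusted p = 0.00896), and Socs3 averaged 76.2 CPM at high pressure and 45.3 CPM at low pressure (0.74, SE 0.11). Plk2, a kinase of the early response, averaged 374 CPM at high pressure and 657 CPM at low pressure (-0.82, SE 0.09), and Myc, a growth regulator, averaged 30.5 CPM at high pressure and 48.9 CPM at low pressure (-0.68, SE 0.13). Leaving out 1 library gave 2 to 8 risen and 2 to 8 fallen genes, with 8 each way without low pressure replicate 3. Without that library 6253 of all genes were called in either direction, against 2089 higher and 1816 lower with all cultured libraries. This larger number of calls is also the background of the counts below that leave out low pressure replicate 3. Of the 19 upstream genes 2 rose and 4 fell, among them Map2k1 (-0.40), the serum response factor coactivator Mkl2 (-0.47) and the MAP kinase target Rps6ka3 (-0.48), while Map2k2 rose (0.49). Without low pressure replicate 3, 3 of these rose and 10 fell, and without any other single library 0 rose and 1 to 4 fell. Of the 9 other phosphatases 2 fell, Dusp6 (-1.08), an inhibitor of ERK, and Dusp10 (-0.50), and leaving out high pressure replicate 2 or 3 ended both calls. Of 12 AP-1 partners and corepressors 5 rose, among them Mafg (0.71), Mafk (0.72), Maf (0.57) and Atf4 (0.28). Leaving out 1 library gave 1 to 6 risen genes in that list. Of 10 heat shock genes 4 rose, among them Hspa1b (1.97) and Hspb1 (1.71), and Hsph1 fell (-0.88). Without high pressure replicate 2 or 3, 0 of the heat shock genes rose, and without low pressure replicate 3 4 fell. The epithelial markers, at 1221 to 1327 CPM at high pressure and 698 to 791 CPM at low pressure, and the endothelial markers, at 86.9 to 195 CPM at high pressure and 196 to 304 CPM at low pressure, moved with the same libraries, as did the ribosomal protein share. Of the 6 epithelial markers 5 rose at high pressure, and Sox9, a gene of the branching tips, fell, to 141 CPM at high pressure against 246 CPM at low pressure. Their part in these differences was not tested.

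The third set of comparisons followed the genes in lungs developing in the embryo. The stages differed little beside the difference to culture, and Egr1 was the gene with a measured rise, at E14.5. 7 of the 10 genes passed the filter in the fresh lungs, and without a replicate block 0 of them, as 0% of 14235 genes, were called in any of the 3 comparisons by edgeR's quasi-likelihood test. At an unadjusted p under 0.05, 1 gene (Egr1) was called between E14.5 and E12.5 and 0 in the others, and DESeq2 called 0 of them throughout. Over all genes an unadjusted p under 0.05 was found for 123 (E13.5 against E12.5), 976 (E14.5 against E13.5) and 1323 genes (E14.5 against E12.5), and DESeq2 called 0, 294 and 488. Libraries of the same replicate number deviated together in all 9 pairs, as set out with the processing, so the number was also entered as a block. Of 18 pairs with different numbers 6 deviated together too, so the numbers may not mark matched sets. In that fit 1 of the 7 genes rose between E14.5 and E12.5, against 7.31% of all genes, and 1 rose between E14.5 and E13.5, against 4.16%. Both times it was Egr1. Between E13.5 and E12.5 the block gave 0 of the 7 and 0.00702% of all genes, and 1 of the 7, Dusp1, had an unadjusted p under 0.05 (-0.32, SE 0.15, adjusted p = 0.999).

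Egr1 had 7.49, 10.9 and 9.91 CPM at E12.5, 6.76, 13.2 and 12.9 CPM at E13.5 and 10.4, 18.9 and 23.0 CPM at E14.5, in replicates 1, 2 and 3. Its E14.5 level was above the E12.5 and the E13.5 level in 3 of 3 numbered pairs, although the libraries of the stages overlapped because replicate 1 was low throughout. With the block its log2 fold change was 0.85 (SE 0.15, adjusted p = 0.00584) for E14.5 against E12.5 and 0.68 (SE 0.15, adjusted p = 0.023) for E14.5 against E13.5. Without the block it was 0.90 (SE 0.34, adjusted p = 0.424) for E14.5 against E12.5. Without the 3 replicate 1 libraries it was 1.03 (adjusted p = 0.0064) for E14.5 against E12.5, and 0.71 (adjusted p = 0.0695) for E14.5 against E13.5, where it did not pass. Egr2 had 10, 16 and 16 counts at E14.5 and 1, 2 and 6 counts at E12.5, too few for the filter. Its E14.5 levels of 0.49 to 0.88 CPM lay above all E12.5 and E13.5 libraries, which reached 0.31 and 0.37 CPM, as for 8.43% of tested genes against E12.5 and 7.72% against E13.5. Egr3 was likewise untested, with 0.33 to 0.73 CPM at E14.5 and 0.05 to 0.23 CPM at E12.5, without overlap.

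**Figure D4:**
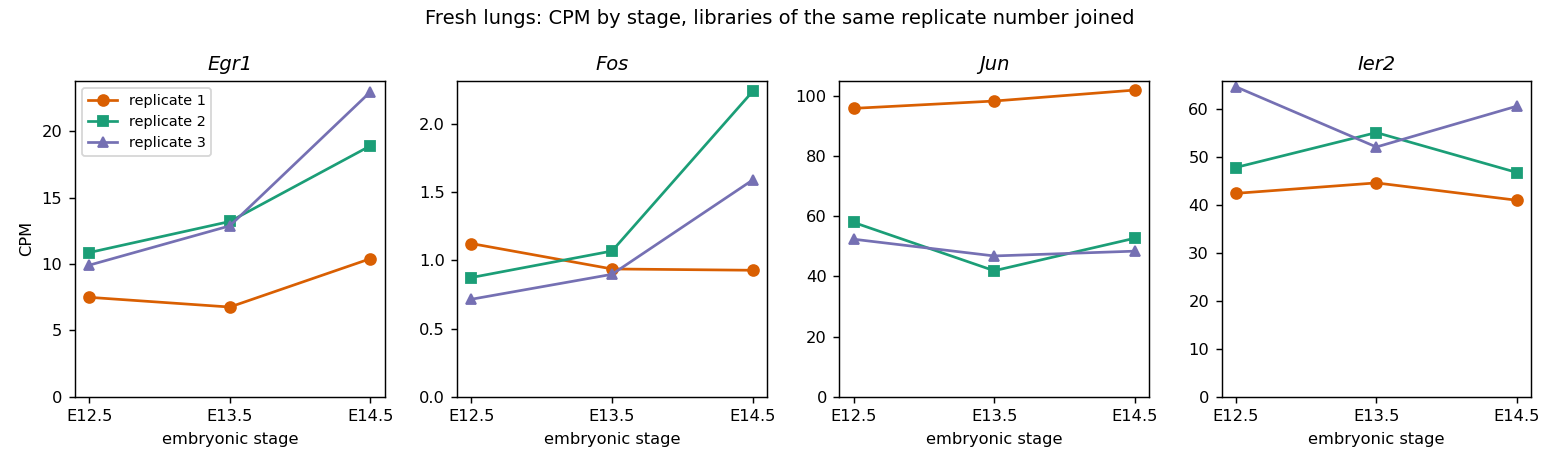
CPM of Egr1, Fos, Jun and Ier2 in the 9 fresh libraries by embryonic stage, with libraries of the same replicate number joined by a line; each vertical axis starts at 0. Egr1 is highest at E14.5 in each of the 3 lines, and Jun in replicate 1 lies at 95.8 to 102 CPM, above the other 2 lines at all stages.

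Junb had 3.23, 3.27 and 3.37 CPM at E12.5, 3.21, 4.28 and 2.99 CPM at E13.5 and 4.25, 3.91 and 5.98 CPM at E14.5. E14.5 libraries lay above E12.5 libraries without overlap, as for 8.43% of all genes in that direction, and the difference did not pass with the block (0.52, SE 0.23, adjusted p = 0.164). Fos had 1.12, 0.87 and 0.72 CPM at E12.5, 0.94, 1.07 and 0.90 CPM at E13.5 and 0.93, 2.24 and 1.59 CPM at E14.5. The difference of Fos between E14.5 and E12.5 was 0.78 with the block (SE 0.38, adjusted p = 0.206), higher in 2 of 3 pairs. Jun differed by replicate number and hardly by stage, at 95.8 to 102 CPM in replicate 1 and 41.9 to 57.9 CPM in replicates 2 and 3. Its log2 difference between E14.5 and E12.5 was -0.041 with the block (SE 0.10, adjusted p = 0.82). Atf3 was also highest in replicate 1 of each stage, at 2.90, 3.40 and 3.76 CPM from E12.5 to E14.5, against 0.80 to 2.24 CPM in replicates 2 and 3. Ier2 stayed between 41.0 and 64.7 CPM and Dusp1 between 7.73 and 11.99 CPM in all 9 libraries, and neither passed in any comparison.

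Some of the further immediate early genes rose at E14.5 as well when the replicate block was used. Of 31 tested, 6 rose against E12.5, where 7.31% of all genes rose, with a median log2 fold change of 0.13 against -0.0031 for all genes, and 4 rose against E13.5, where 4.16% of all genes rose. Without the 3 replicate 1 libraries 4 of the 31 rose against E12.5 and 0 against E13.5. Zfp36 averaged 15.2 CPM at E14.5 and 9.08 CPM at E12.5 (0.75, SE 0.12, adjusted p = 0.00403), and Ier3 averaged 3.28 CPM at E14.5 and 1.19 CPM at E12.5 (1.51, SE 0.28). Klf6, a zinc finger factor, averaged 120 CPM at E14.5 and 85.3 CPM at E12.5 (0.46, SE 0.09), and Ctgf, a secreted matricellular protein gene, averaged 17.8 CPM at E14.5 and 11.3 CPM at E12.5 (0.66, SE 0.14). Dusp9 (-0.64) and Dusp10 (-0.83) fell among the 9 other phosphatases, against 3.62% of all genes that fell, and Nab1 (0.43) and Mapk3 (0.33) rose in their lists. Hspb1 rose in the heat shock list, to 17.2 CPM at E14.5 against 3.52 CPM at E12.5 (2.30, SE 0.26), and Hsph1 (-0.44) and Hsp90aa1 (-0.28) fell. Between the same stages endothelial markers stood at 627 to 725 CPM at E14.5 and 394 to 507 CPM at E12.5, and 5 of 6 rose with the block. Smooth muscle markers summed to 492 to 770 CPM at E14.5 and 237 to 418 CPM at E12.5, and 7 markers of heart and striated muscle to 282 to 1217 CPM at E14.5 and 6.18 to 33.3 CPM at E12.5. Red cell markers went the other way, with sums of 515 to 1356 CPM at E14.5 and 2936 to 3606 CPM at E12.5, and 1 of the 6 tested fell with the block. Their part in the rise of Egr1 was not tested.

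Within the cultured and within the fresh lungs the genes differed in how closely they followed a common profile. Each library's log2 CPM was taken relative to the gene's mean within the cultured or the fresh lungs, and the median over the 10 genes served as their common profile. It was lowest among cultured libraries in low pressure replicate 3, at -0.33, and highest in low pressure replicate 1, at 0.48. Dusp1 lay nearest to that profile, with a root mean square difference of 0.25, followed by Fos and Ier2 at 0.27 and 0.28, and Egr2 lay farthest at 0.99. The median of 10514 other genes with at least 5 CPM on average in both sets was 0.38. The difference between cultured and fresh lungs is left out of these profiles, and each member is part of the median it was compared with. Egr2, Egr3 and Fosb lay under that limit of 5 CPM, so counting error adds to their distances. Egr2 had at most 51 counts a library. The 6 genes nearest to the profile were Lyrm5 (0.14), Cdc42ep3 (0.14), Cd302 (0.14), Dram2 (0.15), Ccndbp1 (0.16) and Usp28 (0.16), as root mean square differences on the log2 scale over 15 libraries.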

How the data were processed

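Libraries were made from total RNA with the PrepX RNA-Seq kit, per the labels' protocols. The submitters' processing notes name cutadapt 1.6, Bowtie 1.1.1, TopHat, HTSeq and DESeq2, and build mm10. Annotation and strand setting of the counting: not given in the sources used here. The authors deposited raw read counts per gene in 2 tables, of 6 cultured and 9 fresh libraries, which every test used. The other deposited tables (normalized signal and log2 values) were not used.

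CPM come from TMM scaling over all 15 libraries. Tests used edgeR 4.0.16 in R 4.3.3 (TMM, filterByExpr by group, robust quasi-likelihood F-test, Benjamini-Hochberg adjustment over all genes tested, threshold 0.05); DESeq2 1.42.0 was an alternative. The SE is the size of the log2 fold change divided by the square root of F. High against low pressure used 6 libraries, the stages 9 in a single fit, and culture against E12.5 all 15.

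The members and lists were chosen with earlier results of these data known. Besides the 10 members, up to 4 called genes with the smallest p were named per list and comparison, not all of them reported here, and the 6 genes nearest to the members' median profile. The genes overlapping members were named after their values were seen. In the time series the deviations of same-numbered libraries from their group means correlated at 0.398 to 0.839 in all 9 pairs. Differently numbered libraries correlated at -0.736 to 0.625, over 0.1 in 6 of 18 pairs. The numbers were taken as a pairing found in the data, on which the labels are silent. The 2 ranges overlap, so the pairing is not clear-cut. Same-numbered cultured libraries correlated at -0.012 to 0.046. No 2 libraries of a group agreed within sampling noise.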

Additional observations from a re-analysis of the deposited data

How the results depend on the processing

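The direction and the side of the threshold of single genes held in 570 of the comparisons with an alternative (other scaling, filter, tool, block, libraries left out), and 36 lost and 4 gained a call, with 29 changes of sign. The rises of Fos, Fosb, Junb, Egr1 and Dusp1 in culture against E12.5 kept their calls under every alternative that used E12.5. Fosb entered the filtered fits only through counts in the cultured libraries, so its kept calls are a description. Numbers of genes called moved as follows. In high against low pressure the fit of all 15 libraries called 1118 genes and 1 member lower. For E14.5 against E12.5, where the planned fit called 0, no filter gave 9 genes, DESeq2 488, the replicate block 1557 with 1 member higher, and leaving out the 3 replicate 1 libraries 1119 with 1 member higher. For E14.5 against E13.5 DESeq2 gave 294, the replicate block 857 with 1 member higher, and leaving out replicate 1 libraries 62. For E13.5 against E12.5 the block gave 1. Low pressure against E12.5 gave 7970 without the replicate 1 libraries. In the cultured lungs, whose numbers do not pair samples, the replicate block gave 2 members lower, since Egr2 did not pass (adjusted p = 0.0805); it changed no other member's call outside the time series.

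Some log2 fold changes changed sign. Atf3 in E13.5 against E12.5 was -0.00195 with upper quartile scaling, -0.042 with the block and -0.33 without the replicate 1 libraries. Ier2 in E14.5 against E13.5 was 0.028 without those libraries, and Egr2 at high pressure was -1.64 against E14.5 in place of E12.5. Leaving out 1 library gave, for E13.5 against E12.5, -0.85 to 0.53 for Atf3, -0.061 to 0.30 for Fos, -0.13 to 0.15 for Ier2, -0.67 to 0.22 for Jun and -0.068 to 0.19 for Junb. For E14.5 against E12.5 it gave -0.19 to 0.0025 for Dusp1, -0.20 to 0.13 for Ier2, -0.45 to 0.34 for Jun and 0 to 3 genes called. For E14.5 against E13.5 it gave -0.17 to 0.086 for Ier2 and -0.32 to 0.66 for Jun. For high against low pressure it gave -0.21 to 0.14 for Fosb, 0 to 4 members lower and 1895 to 6253 genes called, the most without low pressure replicate 3. The cause of these changes was not tested. The filter of a mean of at least 1 CPM removed Egr2, so it gave no value there. Depth limits Egr2, Egr3 and, in fresh lungs, Fosb, with at most 51, 15 and 7 counts a library.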
